A study of Mus musculus with 4 samples.

Results

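The 46 genes described here encode enzymes and transporters of glycolysis, the pentose phosphate pathway and the TCA cycle, with the kinases that control entry of pyruvate into mitochondria. They are listed by gene symbol rather than by a threshold on measured values, with earlier results of these data known, out of 20832 named genes on a whole mouse genome array, and were read in bronchoalveolar lavage fluid (BALF) cells, the cells washed out of the airspaces of the lung. The comparison asks whether the transcripts of carbon metabolism differed in these cells between the genotypes. S1pr2-/- mice lacked S1PR2, a G protein-coupled receptor for sphingosine-1-phosphate, through a targeted disruption in all tissues, on a mixed background crossed back to C57BL/6J once. Wild-type littermates were the controls. The mice were 8 to 10 weeks old, both genotypes received bleomycin, a drug that damages the lung, by intraperitoneal injection at 0.035 U/g 2 times a week, and RNA was taken on day 22. There were 2 arrays per genotype, and no saline array was analysed here. The labels call the cells alveolar macrophages, whereas the extraction used all BALF cells with no stated sort, and whether an array pooled several mice was not found in the sources used here. The methods describe the RNA samples of a genotype as independent, but the sources used here do not say whether they came from separate mice, so that p-values measure the spread between these samples, which may be technical.

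Glycolysis splits glucose into pyruvate in the cytosol. Lactate dehydrogenase then turns pyruvate into lactate, or pyruvate dehydrogenase turns it into acetyl-CoA for the TCA cycle, and the pyruvate dehydrogenase kinases switch the second route off by phosphorylation. The pentose phosphate pathway branches from glucose-6-phosphate and supplies NADPH and ribose. In macrophages these routes are known to be regulated with activation: glucose uptake and lactate formation are typical of inflammatory activation, and oxidation of pyruvate and fatty acids of the response to type 2 cytokines. Hypoxia-inducible factor, which binds short cores in DNA that include ACGTG, is a known activator of glycolytic genes.

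Of 39429 probes, 67.6% to 72.1% gave a signal well above background, depending on the array. Values are log2 of the signal over the 75th percentile of the array, so that 0 is a probe at that percentile and a difference of 1 is a doubling. The targeted gene went against its label: the S1pr2 probe read -0.13 and -0.16 in the wild-type pair and 2.67 and 2.54 in the pair labelled S1pr2-/-, 6.72-fold higher on the latter. Whether this probe lies in the disrupted part of the gene was not given in the sources used here. All directions below follow the labels. All 12 markers of alveolar macrophages were well above background on all 4 arrays, and their median log2 fold change (the arrays labelled S1pr2-/- minus wild-type) was -0.02. Of the 7 eosinophil markers, 6 were tested, and all 6 were lower on the arrays labelled S1pr2-/- with a median of -4.50. Prg3 was near or under the floor of the scale in both genotypes. Before the floor was set it read -8.77 and -6.61 in the wild-type pair and -9.27 and -9.36 in the pair labelled S1pr2-/-. The summed signal of the eosinophil markers, in units of the 75th percentile, was 6.04 and 14.6 in the wild-type pair and 2.36 and 3.69 in the pair labelled S1pr2-/-, against 800 and 856 and then 795 and 849 for the alveolar macrophage markers. At an unadjusted p under 0.05, where 5.59% of all probes were lower and 3.99% higher, 5 of 13 neutrophil markers (median -0.28), 2 of 8 T cell markers (-0.43), 2 of 7 dendritic cell markers (-0.21) and 1 of 8 lung epithelium markers (-0.34) were lower. The markers of B cells (-0.66), NK cells (-0.0089), dividing cells (-0.17), erythroid cells (0.44) and monocyte-derived macrophages (0.60) had 0 past that threshold, and those of macrophages in general (-0.05) had 1, higher. All 8 monocyte-derived macrophage markers tested were nevertheless above 0. Of these, 5 were higher without overlap between genotypes (20.5% of all probes) and 4 were higher past 1.5-fold (1.15% of all probes). In RNA from mixed cells, fewer cells of a type and less RNA per cell cannot be told apart.

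The 46 genes differed little between the genotypes. In limma, a linear model with a variance shared over all probes, 45 genes could be tested, and 0 were called at an adjusted p under 0.05, where the share over all 27158 probes was 0.0% (lowest adjusted p of a member 0.508). The median log2 fold change over the members was -0.01, against -0.0029 over all probes, with 23 members below 0 and 22 above. The difference was smaller than 0.2 on the log2 scale, or 1.15-fold, for 37 of 45 members. Small differences were common on these arrays: the median absolute log2 fold change was 0.10 over the members and 0.12 over all probes. At an unadjusted p under 0.05 only Slc2a1 was lower, 1 of 45 or 2.22%, where 5.59% of all probes were lower. Pfkl, Pdk1 and Pdk4 were higher at the same threshold, 3 of 45 or 6.67%, where 3.99% of all probes were higher. Among the 15411 named genes tested, each by its brightest probe, 5.96% were lower and 4.56% higher. The balance over all probes depended on the scaling, with 1518 lower and 1084 higher here but 1034 and 1536 under quantile normalization.

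The arrays nevertheless bounded most of these differences, for the brightest probe of a gene and against a spread between samples that may be technical. Of the 11 members with several probes tested, 4 had all probes of one sign. The 95% interval of the log2 fold change lay within 1.5-fold in either direction for 37 of 45 members (82.2%), against 67.2% of these named genes, and within 2-fold for 42. The interval held 0 for 41 members. Both arrays labelled S1pr2-/- lay below both wild-type arrays for 12 members (26.7%, where the share over all probes was 21.7%) and above both for 11 (24.4%, with 20.5% of all probes). For 16 of 45 members the difference between the genotypes was larger than both gaps between arrays of one genotype. The share over all probes was not computed for this rule, so that the count says nothing particular to the members. Past 1.5-fold were Slc2a3, lower, where 3.62% of all probes were, and Pdk4, higher, where 1.15% of all probes were. With 2 arrays per genotype the smallest p of an exact two-sided permutation test is 0.333, and their number limits the precision.

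**Figure D1:**
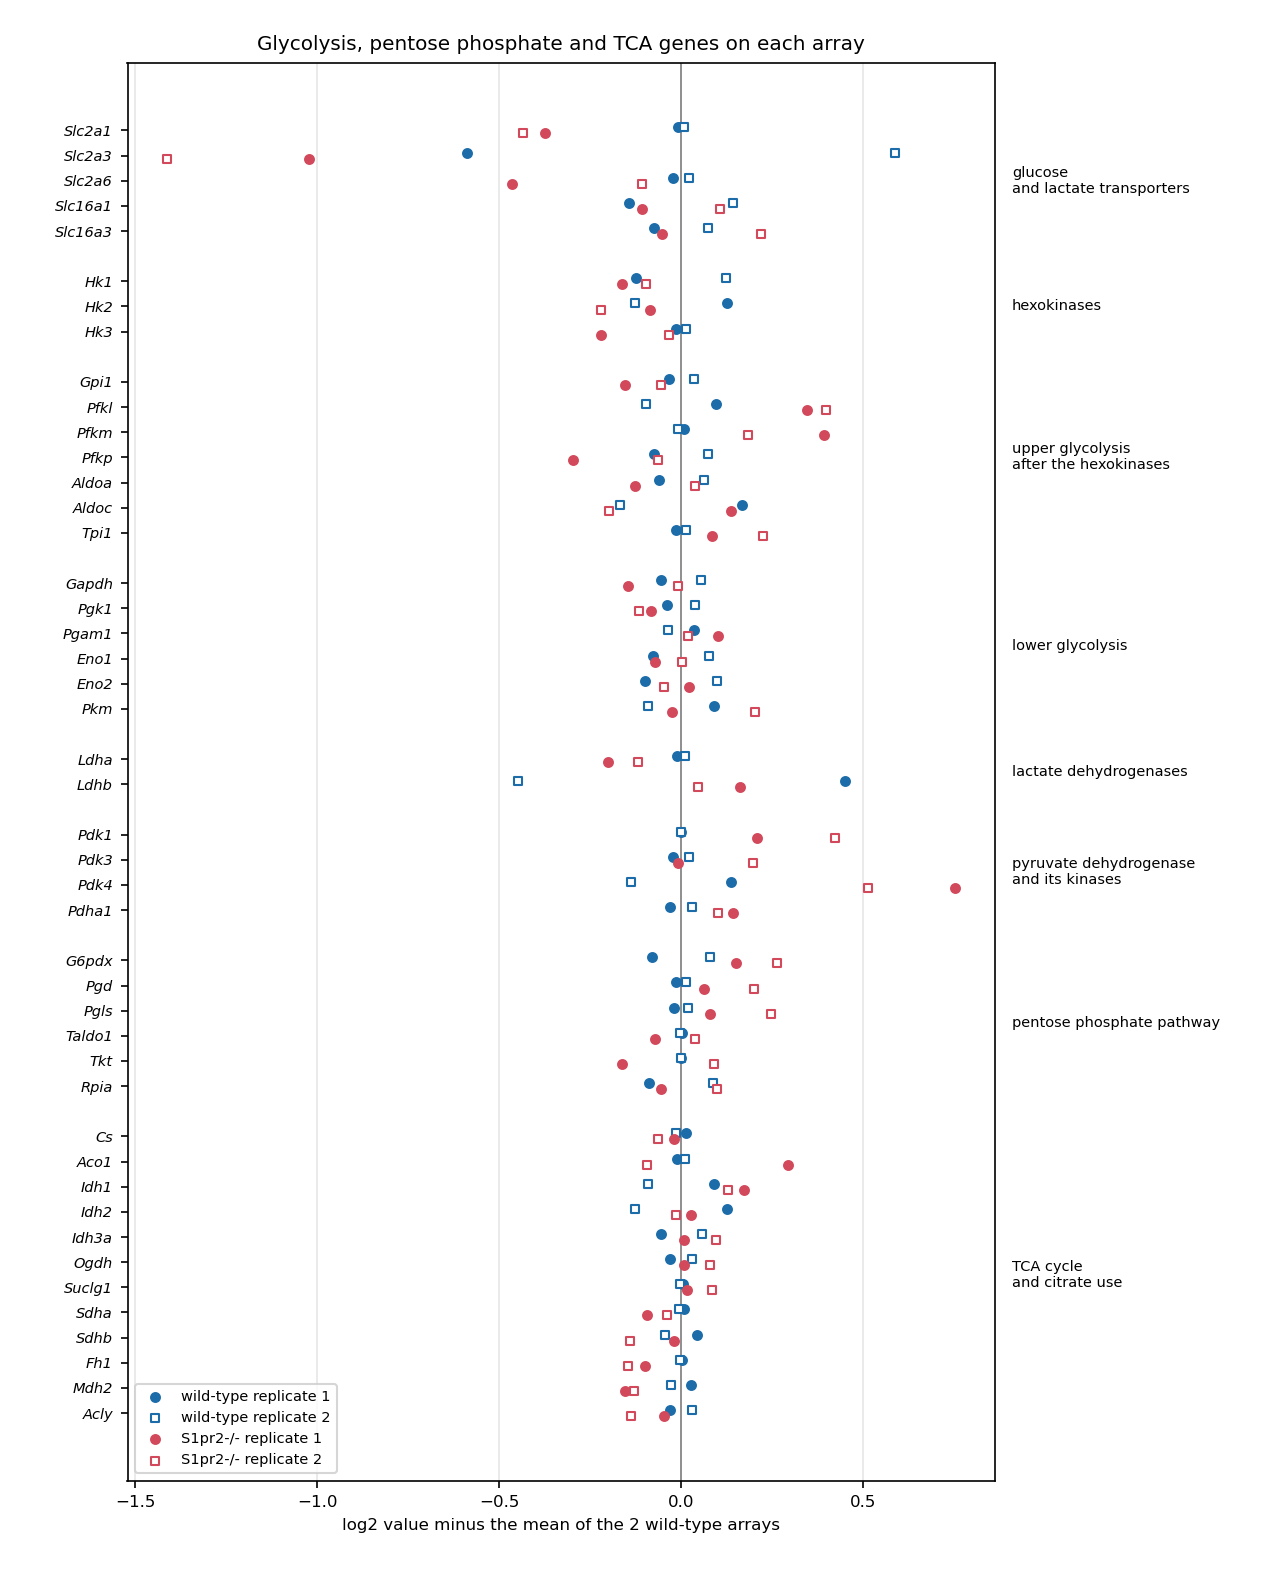
The 45 members measured on all 4 arrays, each array drawn as its log2 value minus the mean of the 2 wild-type arrays, in groups by role; circles are replicate 1 and squares replicate 2. Most points lie within 0.2 of the zero line, while Slc2a3 and Ldhb spread widely between the wild-type arrays and Slc2a1, Pfkl, Pdk1 and Pdk4 separate by genotype.

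**Figure D2:**
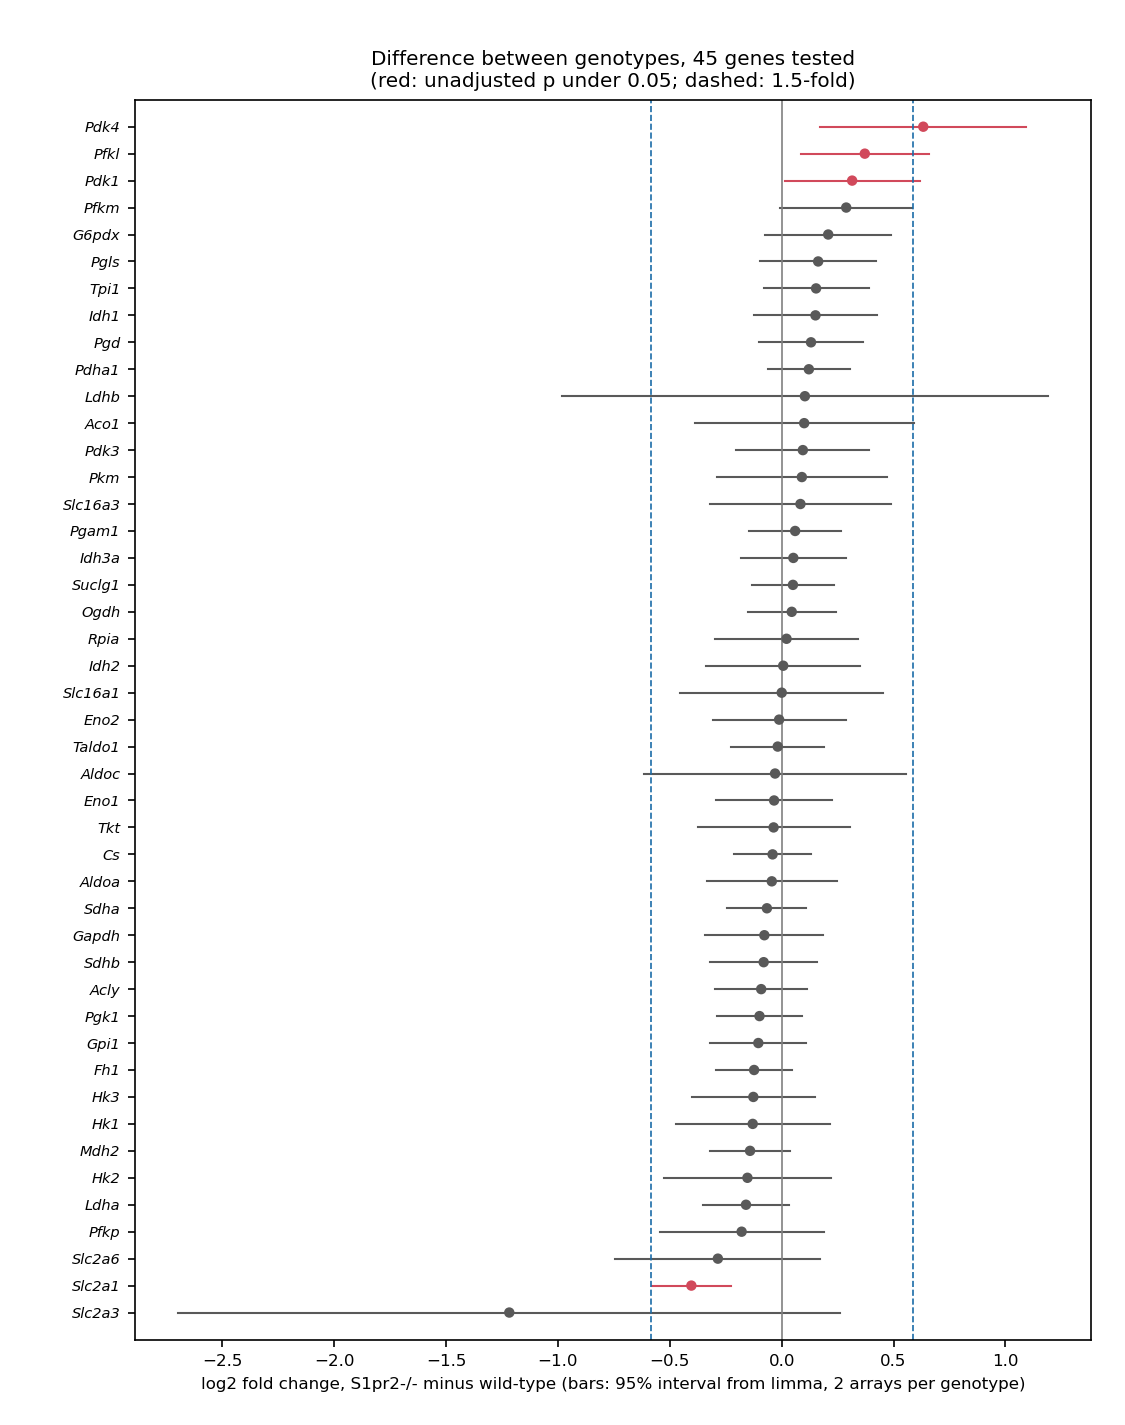
The log2 fold change of each of the 45 members tested, arrays labelled S1pr2-/- minus wild-type, with its 95% interval from limma (2 arrays per genotype), sorted by size. Red marks an unadjusted p under 0.05 and the dashed lines 1.5-fold; 37 of 45 intervals lie between the dashed lines.

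The transporters carry glucose into the cell and lactate out of it, and both the largest difference of the members and the lowest p among them were found here. Slc2a1 (NM_011400) encodes GLUT1, the main glucose carrier of activated macrophages. It read 2.77 and 2.79 in the wild-type pair and 2.41 and 2.35 in the pair labelled S1pr2-/-. The groups did not overlap, and the gap between the genotypes was several times the gaps within them. The log2 fold change was -0.40 (SE 0.059, 95% interval -0.58 to -0.23), that is 1.32-fold lower, with an unadjusted limma p of 0.00467 and an adjusted p of 0.508.

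Slc2a3 (NM_011401), which encodes the high-affinity glucose carrier GLUT3, had the largest difference of all members. It read -2.19 and -1.02 in the wild-type pair and -2.63 and -3.02 in the pair labelled S1pr2-/-. Both of the latter were lower, but the wild-type arrays were themselves 1.18 apart, and replicate 2 was the higher one. The log2 fold change was -1.22 (SE 0.487, 95% interval -2.70 to 0.26, adjusted p = 0.544), -0.63 without wild-type replicate 2 and -1.81 without wild-type replicate 1. The eosinophil markers stood in the same way on the wild-type arrays, their mean lying 0.76 above the wild-type mean on replicate 2, and -4.40 and -3.74 from it on the arrays labelled S1pr2-/-. Their part in the value of Slc2a3 was not tested.

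Slc2a6, a sugar carrier of the lysosomal membrane, read 2.42 and 2.46 in the wild-type pair and 1.98 and 2.34 in the pair labelled S1pr2-/-. Only replicate 1 of the latter was clearly lower, the log2 fold change was -0.29 (SE 0.151, adjusted p = 0.601), and a second, dimmer probe of the gene gave 0.10. Of the lactate carriers, Slc16a3 encodes MCT4, which exports lactate from glycolytic cells. It read 3.53 and 3.68 in the wild-type pair and 3.56 and 3.83 in the pair labelled S1pr2-/-, with overlapping groups and a log2 fold change of 0.08 (SE 0.133). Slc16a1, which encodes MCT1, read -2.96 and -2.67, then -2.92 and -2.71, so that the ranges of the genotypes coincided (95% interval -0.45 to 0.45).

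Hexokinases trap glucose by phosphorylation. Hk1, the broadly expressed form, read 2.73 and 2.98 in the wild-type pair and 2.70 and 2.76 in the pair labelled S1pr2-/-. Hk2, the inducible form, read 1.42 and 1.17, then 1.21 and 1.07. Hk3, the form of myeloid cells, read 0.09 and 0.12, then -0.11 and 0.07. The log2 fold changes were -0.13, -0.15 and -0.13, all below 0. Only the groups of Hk3 did not overlap, the adjusted p was between 0.672 and 0.710, and a dimmer probe of Hk1 gave 0.04. All 3 intervals lay within 1.5-fold.

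Phosphofructokinase commits sugar phosphates to glycolysis, and its subunit genes did not move in one direction. Pfkl (NM_008826), the liver-type subunit, read -0.59 and -0.78 in the wild-type pair and -0.34 and -0.29 in the pair labelled S1pr2-/-. Both arrays labelled S1pr2-/- were higher, by 0.37 (SE 0.095, 95% interval 0.085 to 0.66, adjusted p = 0.510), or 1.29-fold. Pfkm, the muscle-type subunit, read -2.61 and -2.62, then -2.22 and -2.43, a log2 fold change of 0.29 (SE 0.097, 95% interval -0.0060 to 0.58, adjusted p = 0.523). Pfkp, the platelet-type subunit, overlapped between genotypes, with 1.05 and 1.20 against 0.83 and 1.06. Its log2 fold change was -0.18 and that of a dimmer probe 0.08. The unadjusted p of Pfkl was 0.0652 by the methods' t-test. In limma it was 0.0249 with all arrays, 0.117 without S1pr2-/- replicate 2, 0.0916 when S1pr2-/- replicate 1 was left out and 0.0574 when wild-type replicate 2 was. The remaining genes between the hexokinases and the triose phosphates, Gpi1, Aldoa, Aldoc and Tpi1, had log2 fold changes from -0.10 to 0.15. A dimmer probe of Tpi1 gave 0.20.

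The later steps of glycolysis, from glyceraldehyde-3-phosphate to pyruvate, gave 6 genes (Gapdh, Pgk1, Pgam1, Eno1, Eno2 and Pkm) with log2 fold changes from -0.10 to 0.09, all 6 intervals within 1.5-fold and 0 with an unadjusted p under 0.05. Gapdh, often used as a reference gene, read 7.18 and 7.29 in the wild-type pair and 7.09 and 7.23 in the pair labelled S1pr2-/-. These groups overlapped, at a log2 fold change of -0.08 (SE 0.087, adjusted p = 0.764). The array holds 7 Gapdh probes, which ranged from -0.08 to 0.21, and their mean was 0.10, so that the direction depends on the probe. Pkm, pyruvate kinase, read 3.57 and 3.39, then 3.46 and 3.68, with overlapping groups and a log2 fold change of 0.09 (SE 0.126). The mouse genome holds many processed pseudogenes of Gapdh and other genes of this segment, and a probe may not tell their transcripts from those of the gene.

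Lactate dehydrogenase A, encoded by Ldha, favours lactate formation. Ldha read 6.84 and 6.86 in the wild-type pair and 6.65 and 6.73 in the pair labelled S1pr2-/-. The groups did not overlap, the log2 fold change was -0.16 (SE 0.063, 95% interval -0.35 to 0.031, adjusted p = 0.542), and the other 2 probes of the gene gave 0.03 and -0.05. Ldhb, the form that favours pyruvate, read 1.13 and 0.23 in the wild-type pair and 0.84 and 0.72 in the pair labelled S1pr2-/-. The wild-type arrays lay on either side of the others, and the interval of -0.98 to 1.19 leaves the difference undetermined. It was 0.55 without wild-type replicate 1 and -0.35 without wild-type replicate 2.

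Pyruvate dehydrogenase and its kinases gate the entry of pyruvate into the TCA cycle. The 4 genes had log2 fold changes from 0.09 to 0.63, and 3 of them were higher without overlap between genotypes, as were 20.5% of all probes. Pdk4 (NM_013743), the kinase that is induced by fasting and fatty acids, read 0.28 and 0.01 in the wild-type pair and 0.90 and 0.66 in the pair labelled S1pr2-/-. Both of the latter were higher, 1.55-fold, with a log2 fold change of 0.63 (SE 0.152, 95% interval 0.17 to 1.09, adjusted p = 0.508). Pdk1 (NM_172665), a kinase that is induced in hypoxia, read -0.75 in both members of the wild-type pair and -0.54 and -0.33 in the pair labelled S1pr2-/-. The log2 fold change was 0.31 (SE 0.099, 95% interval 0.013 to 0.62, adjusted p = 0.518). Pdk3 overlapped, with 0.17 and 0.21 against 0.18 and 0.39. Pdha1, the catalytic subunit that these kinases act on, had a log2 fold change of 0.12 with no overlap (adjusted p = 0.588). By the methods' t-test the unadjusted p was 0.0735 for Pdk4 and 0.0994 for Pdk1, and without a filter on dim probes it was 0.0693 for Pdk1. The unadjusted limma p of Pdk4 was 0.0210 with all arrays, 0.0979 when S1pr2-/- replicate 1 was left out and 0.0828 when wild-type replicate 2 was, and that of Pdk1 was 0.0448, 0.0765 when S1pr2-/- replicate 2 was left out, and 0.155 and 0.154 when wild-type replicate 1 or 2 was.

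**Figure D3:**
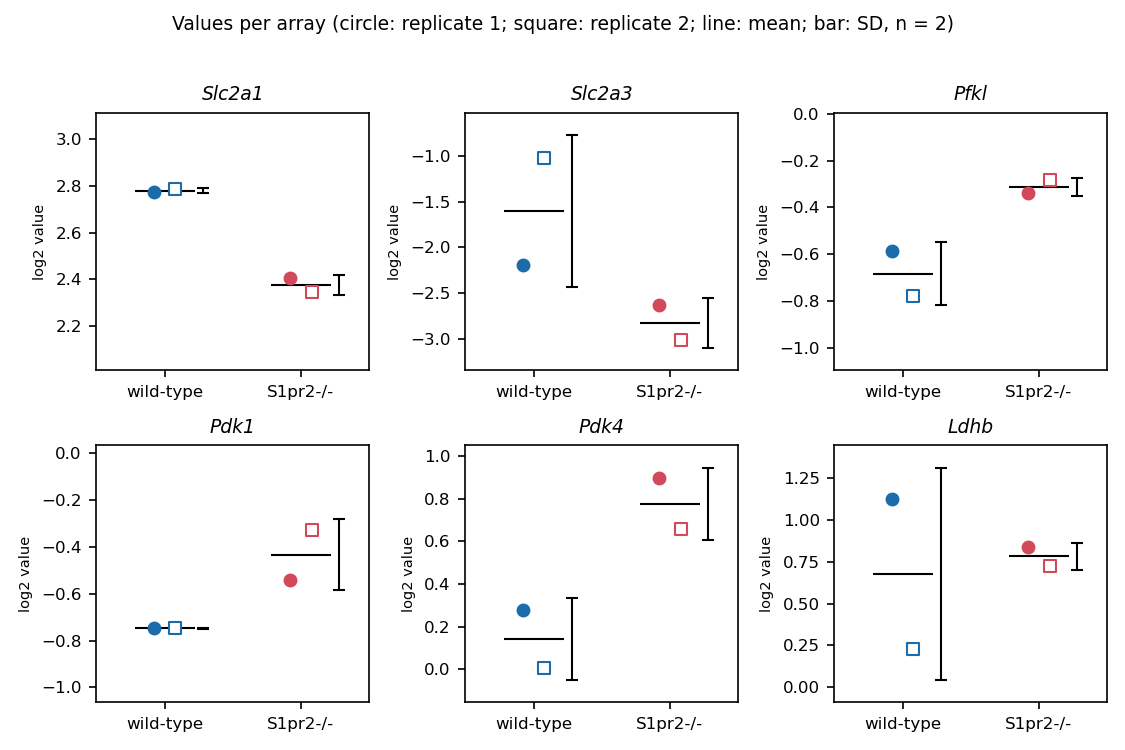
Log2 values over the array's 75th percentile of 6 members on each array, with the mean (line) and SD (bar, n = 2) per genotype. Slc2a1 is lower and Pfkl, Pdk1 and Pdk4 are higher on both arrays labelled S1pr2-/-, whereas the wild-type arrays of Slc2a3 and Ldhb are 1.18 and 0.90 apart.

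The pentose phosphate pathway gave 6 genes with log2 fold changes from -0.04 to 0.21, all 6 intervals within 1.5-fold. G6pdx encodes the first and rate-limiting enzyme. It read 4.06 and 4.22 in the wild-type pair and 4.29 and 4.40 in the pair labelled S1pr2-/-, with a log2 fold change of 0.21 (SE 0.093, adjusted p = 0.565). Pgd, the second NADPH-forming enzyme, read 4.52 and 4.54, then 4.59 and 4.73, at 0.13 (SE 0.076, adjusted p = 0.623). Pgls, which acts between them, had 0.16. G6pdx, Pgd and Pgls were the 3 of 6 genes that were higher without overlap, as were 20.5% of all probes, and none had an unadjusted p under 0.05. The genes of the non-oxidative branch, Taldo1, Tkt and Rpia, had log2 fold changes from -0.04 to 0.02, and the difference between the branches was not tested.

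The TCA cycle and the use of its citrate gave 12 tested genes of 13. By their brightest probes these had log2 fold changes from -0.14 to 0.15 and 0 with an unadjusted p under 0.05. Dimmer probes gave -0.17 for Acly, 0.13 for Sdhb (brightest -0.08), and 0.15 and -0.08 for Ogdh (brightest 0.04). Cs, citrate synthase, read 5.08 and 5.05 in the wild-type pair and 5.05 and 5.01 in the pair labelled S1pr2-/-. The log2 fold change was -0.04 with a 95% interval of -0.21 to 0.13. Idh1, the cytosolic NADP-dependent isocitrate dehydrogenase, read 0.83 and 0.65, then 0.91 and 0.87, at 0.15 (SE 0.090, adjusted p = 0.629). Acly, which cleaves exported citrate to acetyl-CoA for lipid synthesis, read 4.86 and 4.92, then 4.84 and 4.75, at -0.09 (SE 0.068, adjusted p = 0.681). Of the 12, 5 were lower and 2 higher without overlap, as were 21.7% and 20.5% of all probes. Among the brightest probes the lowest value was that of Mdh2, malate dehydrogenase of the mitochondrion (-0.14). Mdh1, its cytosolic counterpart, was not tested because its spot was flagged on wild-type replicate 1, and it read 3.95 on the other wild-type array and 3.91 and 3.81 on the arrays labelled S1pr2-/-.

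Promoter sequence was set beside these values because ACGTG, a form of the hypoxia core, is a known control element of glycolytic genes. Only this form is called the core below, and other forms were not searched. In RefSeq promoter windows (GRCm38.p6), the core was searched on both strands (ACGTG or CACGT, which CACGTG holds on both strands) in the 250 bases before the start. It was present for 16 of 44 members with a window (36.4%), against 18.5% of 27025 genes. CACGTG itself was present for 4 members (9.09%) and 6.86% of genes. The 15 members with the core that were tested had log2 fold changes from -0.40 to 0.29 with a median of -0.04, and the 28 without it from -0.29 to 0.63 with a median of -0.0024. The windows of Pfkl, Pdk1 and Pdk4 held no core in this form. The 160 bases before the start of 4 members that hold it are shown, all on the plus strand and with the core in capitals, since Slc2a1 was the lowest of the members with the core whereas Slc16a3, Ldha and Pgk1 had differences between -0.16 and 0.08. The sequences lie at chr4:119108585-119108744, chr11:120948907-120949066, chr7:46845644-46845803 and chrX:106186940-106187099.
Slc2a1: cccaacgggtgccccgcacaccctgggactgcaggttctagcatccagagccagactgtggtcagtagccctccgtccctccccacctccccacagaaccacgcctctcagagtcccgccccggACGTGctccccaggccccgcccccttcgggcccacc
Slc16a3: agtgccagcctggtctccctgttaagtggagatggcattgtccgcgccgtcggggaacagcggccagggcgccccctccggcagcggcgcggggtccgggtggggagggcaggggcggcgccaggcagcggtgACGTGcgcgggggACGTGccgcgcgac
Ldha: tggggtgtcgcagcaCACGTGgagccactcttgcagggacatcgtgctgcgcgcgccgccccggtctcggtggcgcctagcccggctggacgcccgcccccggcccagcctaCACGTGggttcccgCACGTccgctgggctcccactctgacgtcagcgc
Pgk1: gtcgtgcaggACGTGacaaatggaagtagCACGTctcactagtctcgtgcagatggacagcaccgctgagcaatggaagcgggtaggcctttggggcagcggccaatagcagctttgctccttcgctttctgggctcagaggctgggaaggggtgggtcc

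Counted from the start, the core began at -36 in Slc2a1, at -27 and -14 in Slc16a3, at -145, -48 and -34 in Ldha, and at -150 and -131 in Pgk1. A match of letters describes the window only.

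Of 62 other genes of the same pathways, 56 were tested, with a median log2 fold change of 0.04, 0 called at an adjusted p under 0.05, and 5 lower and 2 higher at an unadjusted p under 0.05 (8.93% and 3.57%, where 5.59% and 3.99% of all probes were). The 5 include Ldhc, which passed the filter through the wild-type arrays alone. Acod1 makes itaconate from cis-aconitate, a product of activated macrophages. It read -1.02 and 0.16 in the wild-type pair and -2.24 and -2.12 in the pair labelled S1pr2-/-. Both of the latter were lower, 3.36-fold, with a log2 fold change of -1.75 (SE 0.464, adjusted p = 0.514), -2.33 without wild-type replicate 1 and -1.16 without wild-type replicate 2. Wild-type replicate 2 was again the higher one, as for Slc2a3 and the eosinophil markers, whose part in it was not tested.

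Ldhc, a lactate dehydrogenase known from the testis, read -3.02 and -1.49 on the wild-type arrays and lay at the floor, the lowest value of the scale, in both members of the pair labelled S1pr2-/-, although 1 of these spots was marked as well above background. It was thus at least 21.0-fold lower with this floor (adjusted p = 0.508), and the size depends on the floor and on the array left out, with a fitted log2 fold change of -5.15 without wild-type replicate 1, -3.63 without wild-type replicate 2 and -2.92 after normexp background correction. Of the others, the enolase Eno3 had -0.37, the pyruvate dehydrogenase phosphatase Pdp1, which reverses the action of the kinases, -0.37, and the urate carrier Slc2a9 -0.18. The higher ones were Suclg2, a subunit of succinyl-CoA ligase, with 0.38, and the aspartate-glutamate carrier Slc25a13, with 0.22.

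The hypoxia-inducible factor list (the factors, their hydroxylases and targets outside glycolysis) held 23 genes, of which 22 were tested. The median was -0.05, with 5 lower (22.7%) and 1 higher (4.55%) at an unadjusted p under 0.05, where 5.59% and 3.99% of all probes were, and 0 called at an adjusted p under 0.05. Ddit4, an inhibitor of mTORC1 signalling, read 2.06 and 2.05 in the wild-type pair and 1.22 and 1.27 in the pair labelled S1pr2-/-. The separation was more than 10 times the larger gap within a genotype, at a log2 fold change of -0.81 (SE 0.058, 95% interval -0.98 to -0.63, 1.75-fold lower, adjusted p = 0.508). Vegfa, an angiogenic growth factor, read -3.04 and -2.80, then -3.41 and -3.56, at -0.57 (SE 0.122, adjusted p = 0.508). Adm, the precursor of adrenomedullin, had -0.34, Ankrd37 -0.23 and the histone demethylase Kdm3a -0.22. Egln3, a prolyl hydroxylase that is itself a target, had -1.20 (SE 0.482, adjusted p = 0.544) with -0.63 without S1pr2-/- replicate 2 and -1.77 without S1pr2-/- replicate 1. Bnip3, a mitophagy receptor, was the higher one, with 0.27. The factors Hif1a (0.03) and Epas1 (0.24) had no unadjusted p under 0.05.

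Of 16 regulators of sugar and energy use, 2 were lower and 1 higher at that threshold, beside 5.59% and 3.99% of all probes, with a median of -0.02. The lower ones were Mlxipl, which encodes the glucose-sensing factor ChREBP, with -0.33 and an SE of 0.089, and Ppargc1b, a coactivator of mitochondrial genes, with -0.36 and an SE of 0.087. Tfeb, a regulator of lysosome genes, was higher by 0.33 with an SE of 0.064. None of the regulators was called at an adjusted p under 0.05 (lowest 0.508). Of the 16 genes outside the 46 with an unadjusted p under 0.05, Ddit4, Suclg2 and Tfeb kept it in all 13 alternatives run on all 4 arrays. Ldhc kept it in the 12 that gave the gene a value, which is no support. The gene passed the filter through the wild-type arrays alone and lay at the floor on the others, so that its p depends on both. Ankrd37, Bnip3, Slc25a13 and Slc2a9 lost it with any 1 array left out, and Ankrd37, Kdm3a, Bnip3, Slc25a13 and Slc2a9 also with the authors' log2 table and cyclic loess normalization. Of the 13 alternatives run on all 4 arrays, Vegfa lost it in 1, the methods' t-test, and Adm in 1. Ppargc1b and Mlxipl lost it in 2 of them, Acod1 and Eno3 in 3, and Pdp1 in 6.

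**Figure D4:**
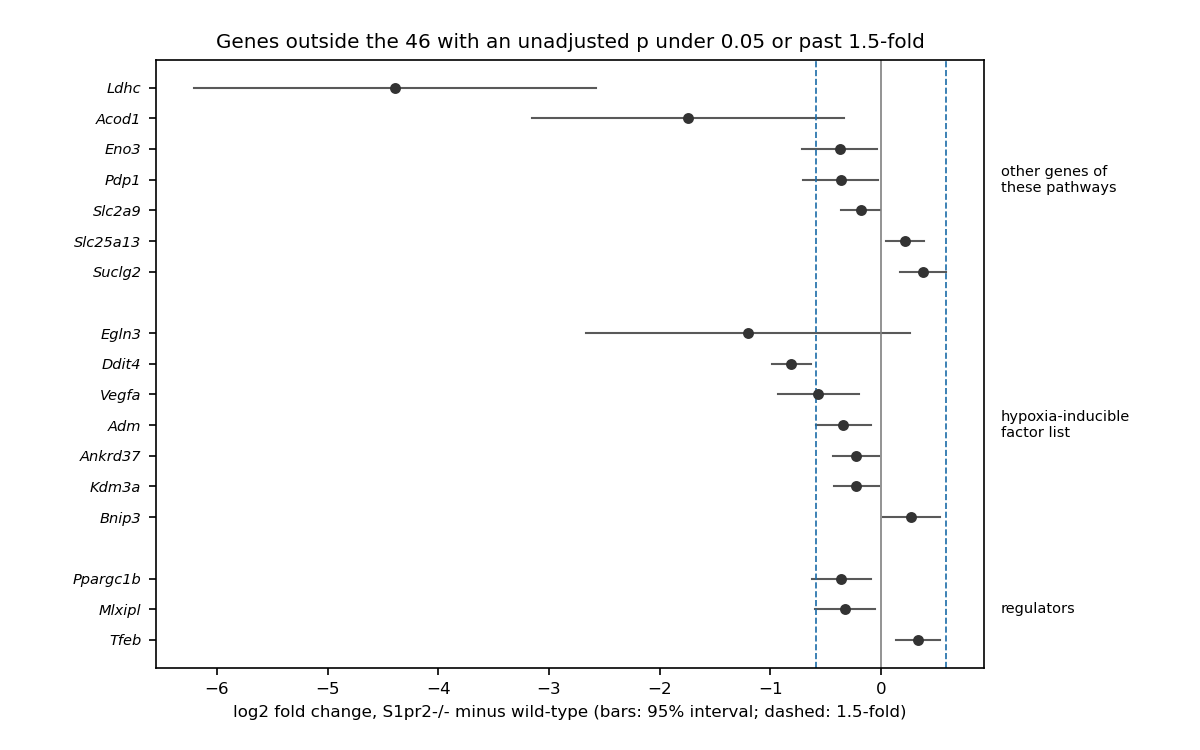
The log2 fold change, arrays labelled S1pr2-/- minus wild-type, of the genes outside the 46 with an unadjusted p under 0.05 or past 1.5-fold, with 95% intervals from limma and dashed lines at 1.5-fold. Ddit4 has a narrow interval from -0.98 to -0.63, whereas those of Acod1 and Egln3 are wide and the point of Ldhc depends on the floor.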

How the data were processed

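The members and all gene lists were chosen with earlier results of these data known. The authors deposited the spot intensity of each array as Feature Extraction wrote it, background-corrected (version 10.7.3.1 in the methods and the submitters' processing notes, 11.0.1.1 in the file headers), and a table of normalized log2 values, used as an alternative. From the intensities, log2 of the processed signal over the 75th percentile of non-control spots (2489 to 2817 units) was taken, with a floor of 0.01 set after scaling. Between 115 and 273 flagged spots per array were left out, 0 were saturated, and all arrays shared 1 slide and 1 scan. Spots of a probe were averaged. Probes with a value on each of the 4 arrays, and a signal above background on both arrays of 1 or both genotypes (27158), were fitted with limma 3.58.1 in R 4.3.3 (lmFit, eBayes), tested on simulated data, with Benjamini-Hochberg adjustment. Probes were named through accessions in RefSeq (GRCm38.p6; 69.6% had a symbol), and the brightest probe stood for a gene; the array design uses another build. Array values are printed for the key enzymes of each step, and for members with an unadjusted p under 0.05 or past 1.5-fold; other lists name genes past either limit. The alternatives were other normalizations, background correction, floor, filter, flags, probe choice, variance model, the methods' t-test, the replicate block and each array left out; the lone array of a genotype was then assumed to vary like the others. The mean signal was not among the columns, so normexp used the median signal.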

Additional observations from a re-analysis of the deposited data

How the results depend on the processing

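The count of members at an adjusted p under 0.05 was 0 under every alternative run, and the median log2 fold change of the members stayed between -0.01 and 0.05, with -0.03 to 0.02 when single arrays were left out. Slc2a1 kept its direction and an unadjusted p under 0.05 under all of them. Members lower at an unadjusted p under 0.05 numbered 3 by the methods' t-test and with the percentile over detected probes. Beside them, 1065 and 1433 of 27158 probes were lower. With no filter or a trended variance 4 members were lower, beside 1589 of 39359 and 1606 of 27158 probes. Members higher numbered 0 by the methods' t-test and 1 with the replicate block, beside 995 and 976 of 27158 probes. With single arrays left out, such counts would rest on the spread of 1 genotype and are not given. Members without overlap then numbered 16 to 19 lower (35.6% to 42.2%) and 13 to 19 higher (28.9% to 42.2%), beside 33.1% to 39.2% and 32.5% to 37.5% of all probes, since 3 arrays separate more easily than 4. Same-numbered arrays deviated together only weakly. Across the 27158 probes, the deviations of the replicate 1 arrays from their genotype means had a correlation of 0.187. With 2 arrays per genotype, those of replicate 2 mirror them. The correlation does not settle whether the numbers pair the arrays, since it is weak but not 0. The main fit did not pair them. The block moved the count of higher members from 3 to 1, and that of higher probes from 1084 to 976. The direction of Slc16a1 turned with the authors' log2 table (-0.0011), cyclic loess (-0.0020) and normexp (-0.022), and that of Gapdh with the mean of all probes (0.10). With single arrays left out, Slc16a1 ranged from -0.14 to 0.14, Slc16a3 from -0.053 to 0.22, Pdk3 from -0.0078 to 0.20, Pkm from -0.024 to 0.20 and Ldhb from -0.35 to 0.55. The cause was not tested. Over all probes, the percentile of detected probes gave 1433 lower and 1694 higher, and normexp 1695 lower and 793 higher. Ldhc has no value when probes must be detected on all arrays. Depth is not a limit for the members, which were well above background on all arrays measured; the number of arrays is.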
